A study of Mus musculus with 18 samples.

Results

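A set of 10 genes used as markers of the stomach lining and of Brunner glands was followed through mouse small intestinal organoid cultures: Gkn1, Gkn2, Gkn3, Tff1, Tff2, Muc5ac, Cldn18, Ctse, Sox2 and Pdx1. The genes were chosen by name, with earlier results of these data known. All 10 were found among the 55414 genes of the deposited table. Polyadenylated RNA was sequenced from 18 libraries, 6 groups of 3 replicates, all of wild-type C57BL/6J mice, and library totals ran between 22.3 M and 34.5 M estimated counts. VIL cultures were grown from villi scraped from the first 3 cm of intestine below the pylorus, in collagen type I with 25% cWRNE medium. COL_cWRNE cultures were grown from small intestinal crypts in the same gel and medium. COL_5FU and COL_Control cultures were crypt organoids in type I collagen under ENRW medium. MG_5FU and MG_Control cultures were crypt organoids in Matrigel, a gel extracted from basement membrane, under ENR medium, which holds EGF, R-spondin 1 and Noggin. The 5FU groups received 40 µM 5-fluorouracil (5-FU), a pyrimidine analogue that disturbs thymidylate synthesis, from day 4, and RNA was taken on day 6 in every group. Medium changed together with the gel between the COL and MG groups, so gel and medium cannot be told apart there. The cultures are bulk samples labelled as intestinal epithelial cells, and all 12 markers listed for the intestinal epithelium were detected in each group. The labels do not say from how many mice a culture came, give the stretch of intestine for the villi alone, and the contents of ENRW and cWRNE are not given in the sources used here.

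Brunner glands are mucous glands under the first part of the duodenum, and they share secreted products with the mucous cells of the stomach. Gastrokines and trefoil factors are small secreted proteins of the gastric mucous layer, Muc5ac is the gel-forming mucin of gastric surface cells, claudin 18 is a tight junction protein of gastric epithelium and cathepsin E is an aspartic protease of gastric epithelium and some immune cells. Sox2 is a transcription factor of the foregut and stomach, and Pdx1 is a transcription factor of the antrum, duodenum and pancreas.

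The 3 gastrokine genes are neighbours in the annotation, and their levels were unlike one another in these cultures, so their promoters are shown together. RefSeq windows of 300 bases on GRCm38.p6, with 250 bases before and 50 after each gene's start, are printed 5′ to 3′ on the strand of the gene. They are chr6:87350866-87351165 on the minus strand for Gkn1, chr6:87373115-87373414 on the plus strand for Gkn2 and chr6:87388886-87389185 on the minus strand for Gkn3. Capitals mark matches to AGATAA, the core of GATA sites, and to TATAAA, the TATA box.
Gkn1: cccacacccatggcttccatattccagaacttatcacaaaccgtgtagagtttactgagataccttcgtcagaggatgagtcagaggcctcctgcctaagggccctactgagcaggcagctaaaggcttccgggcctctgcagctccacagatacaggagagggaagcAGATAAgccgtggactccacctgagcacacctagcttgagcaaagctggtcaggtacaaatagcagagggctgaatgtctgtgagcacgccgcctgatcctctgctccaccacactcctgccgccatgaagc
Gkn2: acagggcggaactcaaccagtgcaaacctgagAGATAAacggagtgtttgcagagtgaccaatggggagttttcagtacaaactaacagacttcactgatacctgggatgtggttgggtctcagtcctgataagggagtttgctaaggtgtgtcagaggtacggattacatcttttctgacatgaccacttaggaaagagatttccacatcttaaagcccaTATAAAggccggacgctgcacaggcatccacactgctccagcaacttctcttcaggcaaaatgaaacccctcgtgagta
Gkn3: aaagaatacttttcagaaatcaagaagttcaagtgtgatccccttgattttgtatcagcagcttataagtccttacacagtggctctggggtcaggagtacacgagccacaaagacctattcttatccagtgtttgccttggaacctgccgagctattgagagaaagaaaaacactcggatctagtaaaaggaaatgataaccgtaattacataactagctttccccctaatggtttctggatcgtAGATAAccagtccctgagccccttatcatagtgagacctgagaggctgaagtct
Both strands were searched. AGATAA was found in each of the 3 windows, beginning at offset -82 from the gene start in Gkn1, -218 in Gkn2 and -4 in Gkn3, and it is held by 11.2% of 32851 promoters of this length. TATAAA was found in the Gkn2 window alone, at offset -29, and is held by 13.6% of promoters. Neither TTTATG, the core of CDX sites (11.9% of promoters), nor TGTTTAC, a forkhead core (3.65%), was in any of the 3 windows. A match is a description of letters and not of a bound site. The table held promoters for 6 of the 10 genes.

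Of the 10 genes, 5 could be tested across the 12 libraries of the 5-FU and gel comparisons, 6 across the 9 libraries of the villus comparisons, and 7 across all 18. The rest had too few counts. On TPM, which accounts for transcript length, the highest group means were 320 ± 250 TPM for Ctse and 106 ± 130 TPM for Tff1, both in VIL, 89.6 ± 2.95 TPM for Gkn3 in COL_cWRNE and 15.4 ± 4.28 TPM for Pdx1 in MG_Control (SD, n = 3). The highest mean was 25.6 ± 40.7 TPM for Tff2, 5.42 ± 4.42 for Gkn1, 1.29 ± 2.24 for Gkn2 and 0.159 ± 0.275 for Muc5ac, each in VIL, and 3.85 ± 2.1 for Cldn18 in COL_cWRNE. Gkn3 and Pdx1 were the only genes of the 10 at over 1 TPM in each library, while Sox2 had no count in any of the 18 libraries, which allows up to 0.00584 CPM (counts per M, scaled between libraries) over all of them.

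**Figure D1:**
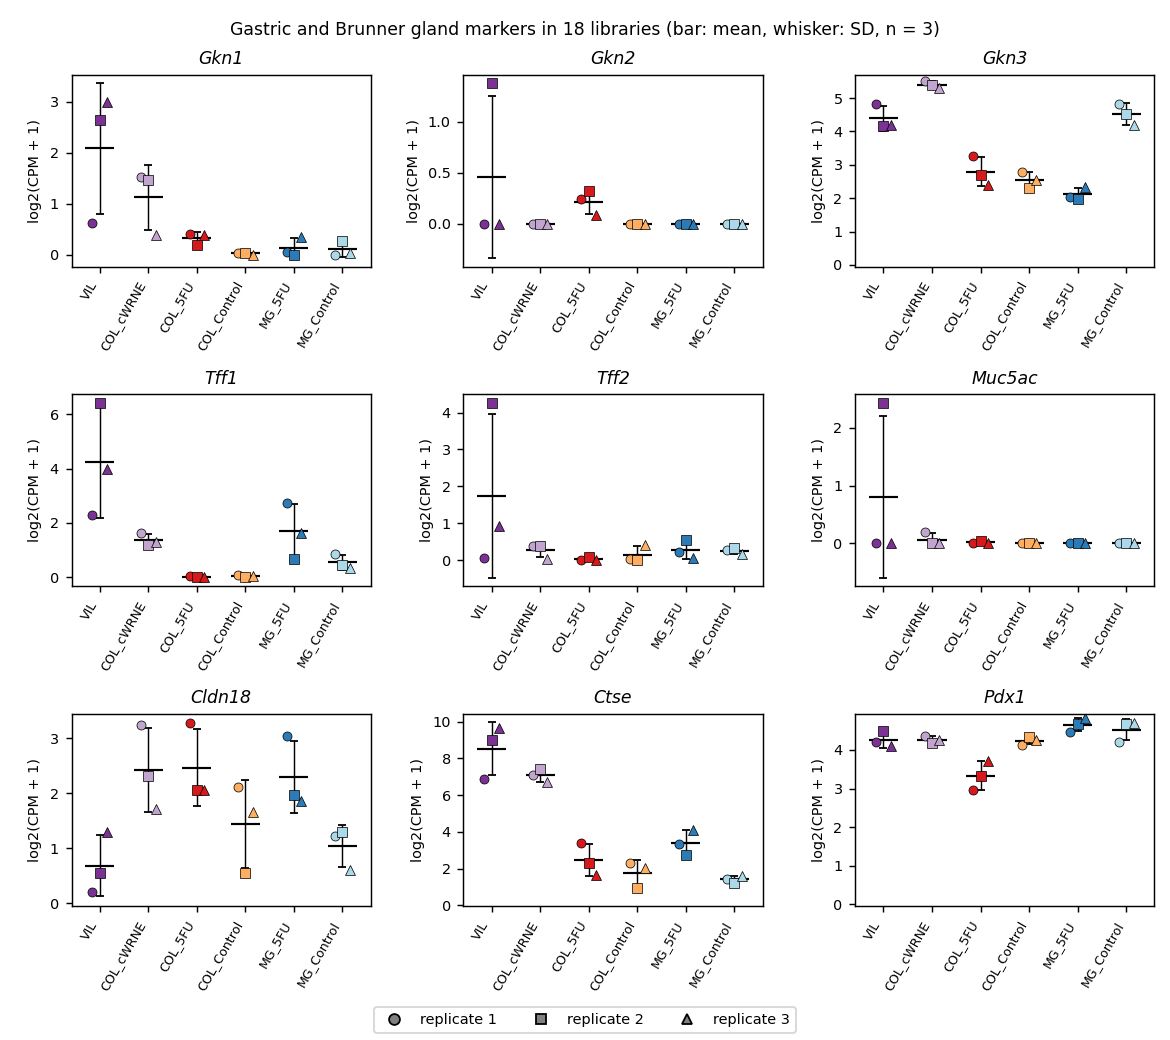
Level of 9 markers in every library, as log2(CPM + 1) on the vertical axes, by group on the horizontal axes; points are libraries, bars are means and whiskers SD (n = 3). Ctse lies between 104 and 809 CPM in the VIL and COL_cWRNE libraries and at or below 16.3 CPM elsewhere, and the high Tff2, Muc5ac and Gkn2 points belong to VIL replicate 2.

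Ctse, which encodes cathepsin E, separated the cultures in cWRNE medium from all others. It was at 118, 507 and 809 CPM in VIL, 134, 170 and 104 CPM in COL_cWRNE, 9.57, 4.01 and 2.17 CPM in COL_5FU, 3.88, 0.914 and 3.08 CPM in COL_Control, 8.96, 5.71 and 16.3 CPM in MG_5FU and 1.68, 1.36 and 1.97 CPM in MG_Control (replicates 1 to 3). No library outside VIL and COL_cWRNE reached the lowest of those 6. By mean the order was VIL, COL_cWRNE, MG_5FU, COL_5FU, COL_Control and MG_Control, and of these neighbours COL_cWRNE and MG_5FU alone had ranges that did not overlap. Gkn3, a gastrokine, was at 27.3, 17.0 and 17.3 CPM in VIL, 45.0, 40.6 and 38.6 CPM in COL_cWRNE, 8.57, 5.50 and 4.29 CPM in COL_5FU, 5.86, 3.89 and 4.78 CPM in COL_Control, 3.11, 2.95 and 4.06 CPM in MG_5FU and 27.5, 22.2 and 17.3 CPM in MG_Control. By mean COL_cWRNE was highest, without overlap with any other library, and then came MG_Control and VIL, which overlapped, and COL_5FU, COL_Control and MG_5FU, each overlapping its neighbour. Pdx1 was at 6.80, 9.09 and 12.1 CPM in COL_5FU and between 16.1 and 27.4 CPM in every other library.

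In the log2(CPM + 1) values of the 18 libraries, Tff1 and Ctse had a Pearson correlation of 0.779 and Gkn3 and Ctse of 0.551, and the other 4 pairs among Gkn3, Tff1, Ctse and Pdx1 lay between 0.0473 and 0.282. These libraries fall into 6 groups, so the values describe group differences and carry no test. Among 10606 other genes at 10 CPM or more in their highest group, the closest to Gkn3 were Tubb2b (0.947), Glipr2 (0.934) and Bcat2 (0.893). The closest to Ctse were Sdc3 (0.974), AW112010 (0.972) and Paqr5 (0.97), those among the closest to Tff1 were Pamr1 (0.94) and Upk1b (0.915), and the closest to Pdx1 were Mgam (0.913), Stra6l (0.901) and Hkdc1 (0.898).

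With 5-FU in Matrigel, Ctse, Tff1 and Cldn18 rose and the gastrokine Gkn3 fell. Of the 5 genes tested, 3 were higher and 1 lower at an adjusted p under 0.05 by edgeR, where 30.9% of the 16611 genes tested were called, 19.2% higher and 11.7% lower. Gkn3 averaged 3.37 ± 0.6 CPM in MG_5FU and 22.3 ± 5.12 CPM in MG_Control (SD, n = 3), without overlap, a log2 fold change of -2.67 ± 0.28 (SE, edgeR adjusted p = 1.03e-05), 6.36-fold lower. Ctse averaged 10.3 ± 5.44 CPM in MG_5FU and 1.67 ± 0.308 CPM in MG_Control, also without overlap (log2 fold change 2.67 ± 0.60, edgeR adjusted p = 0.00378). Both calls held in every alternative in which the gene could be tested.

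Tff1, the trefoil factor of gastric surface cells, was at 5.67, 0.605 and 2.12 CPM in MG_5FU and 0.805, 0.357 and 0.273 CPM in MG_Control, so the groups overlapped. Its log2 fold change was 2.61 ± 0.81 (edgeR adjusted p = 0.0251), and it was 1.58 (edgeR adjusted p = 0.228) without MG_5FU replicate 1, 2.45 (0.0855) without MG_Control replicate 2 and 2.34 (0.0816) without MG_Control replicate 3. Cldn18 was at 7.23, 2.91 and 2.63 CPM in MG_5FU and 1.35, 1.47 and 0.516 CPM in MG_Control, without overlap (2.00 ± 0.67, edgeR adjusted p = 0.0361). The Cldn18 call was lost without MG_5FU replicate 1 (1.40, edgeR adjusted p = 0.162) and without MG_Control replicate 1 (0.0678), 2 (0.0597) or 3 (0.113). It was also lost on library totals (edgeR adjusted p = 0.0508), with all 18 libraries (0.0903) and by limma on TPM, at 0.67 (adjusted p = 0.235) and 1.07 (0.227) with pseudocounts of 1 and 0.1. The Tff1 call was lost with all 18 libraries (edgeR adjusted p = 0.0618) and on TPM with a pseudocount of 0.1 (1.84, limma adjusted p = 0.0672). Pdx1 was at 21.2, 24.5 and 27.4 CPM in MG_5FU and 17.6, 24.4 and 25.0 CPM in MG_Control and was not called (0.18 ± 0.21, edgeR adjusted p = 0.581). In such bulk samples, fewer cells of a type and less RNA per cell cannot be told apart. Antisense genes overlap Tff1, Cldn18 and Pdx1, and the strand used in counting was not given in the sources used here, so reads of each pair cannot be told apart.

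In collagen, 1 of the 5 genes was called with 5-FU, where 35.3% of genes were called (18.6% higher, 16.7% lower), and it was Pdx1, the transcription factor shared by antrum, duodenum and pancreas. Pdx1 averaged 9.33 ± 2.67 CPM in COL_5FU and 18.0 ± 1.31 CPM in COL_Control, with no overlap (log2 fold change -0.97 ± 0.22, edgeR adjusted p = 0.00329), and the adjusted p stayed under 0.05 in every alternative run, although the fold change is short of a log2 change of 1. Gkn3 was at 6.12 ± 2.21 CPM in COL_5FU and 4.84 ± 0.984 CPM in COL_Control (0.30 ± 0.27, edgeR adjusted p = 0.419). Ctse had a log2 fold change of 0.96 ± 0.57 (edgeR adjusted p = 0.215) and Cldn18 of 1.30 ± 0.64 (0.137; 0.0327 without the filter), and the ranges of the groups overlapped for both. Tff1 had 1 count over COL_5FU and 3 over COL_Control, a ratio of 0.33 (95% exact counting interval 0.00628 to 4.1), so no difference was detectable at this depth.

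The change with 5-FU differed between the gels for 2 of the 5 genes, Gkn3 and Pdx1, where 8.19% of genes passed the same test of the difference, 1.88% with a higher and 6.30% with a lower value in collagen. The difference, collagen minus Matrigel, was 2.97 ± 0.39 for Gkn3 (log2, edgeR adjusted p = 0.000454) and -1.15 ± 0.30 for Pdx1 (edgeR adjusted p = 0.0322). The Pdx1 difference lost its call (edgeR adjusted p 0.0534 to 0.0874) when COL_5FU replicate 1 or 2, COL_Control replicate 2 or 3, MG_5FU replicate 2 or 3, or MG_Control replicate 1 or 2 was left out, with all 18 libraries (0.0517) and by limma on TPM (adjusted p 0.141 and 0.143). The differences for Ctse (-1.71 ± 0.81, edgeR adjusted p = 0.236), Tff1 (-3.91 ± 1.91, 0.252) and Cldn18 (-0.70, 0.734) were not called, which does not show that these genes responded alike in the 2 gels.

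**Figure D2:**
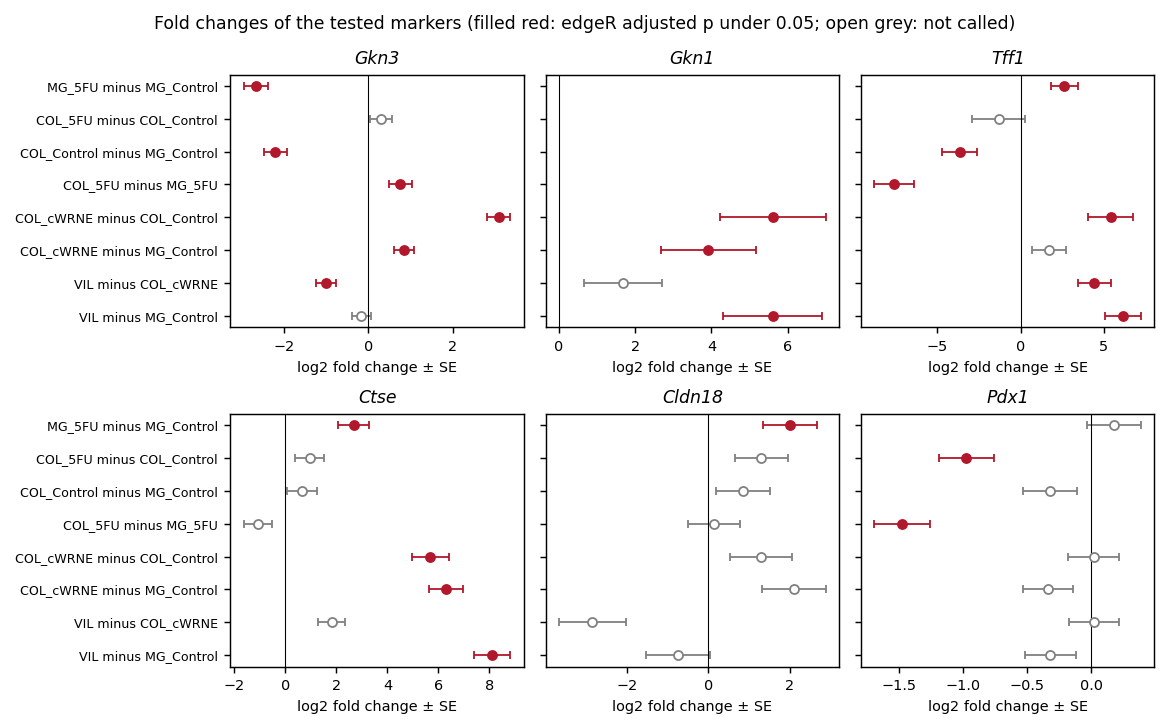
Log2 fold change (horizontal axis) with its SE for 6 genes, one row per comparison, first-named group minus second. Filled red points have an edgeR adjusted p under 0.05 and open grey points do not. Gkn1 was tested only where a cWRNE culture was compared, and its other rows are empty. Gkn3 is at 0.30 with 5-FU in collagen and -2.67 with 5-FU in Matrigel, and Ctse exceeds 5 in the 3 rows that set a cWRNE culture against a culture in other medium.

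In untreated cultures Gkn3 and Tff1 were lower in collagen with ENRW than in Matrigel with ENR. Of 5 genes tested, 0 were higher and 2 lower, where 31.2% of genes were called, 15.8% higher and 15.4% lower. Gkn3 averaged 4.84 ± 0.984 CPM in COL_Control and 22.3 ± 5.12 CPM in MG_Control, 4.61-fold lower (log2 fold change -2.20 ± 0.28, edgeR adjusted p = 4.93e-05). Tff1 had 3 counts over COL_Control and 41 over MG_Control, 13.7-fold lower (95% exact counting interval 4.38 to 69.3; edgeR adjusted p = 0.0187). It passed the filter through the Matrigel groups alone, so a higher value in collagen could hardly have been called. The Tff1 call was lost without COL_Control replicate 2 (edgeR adjusted p = 0.0671) or 3 (0.052) and without MG_Control replicate 1 (0.0641), with all 18 libraries (0.0904) and on TPM with a pseudocount of 1 (-1.05, limma adjusted p = 0.0874). Ctse (0.64, edgeR adjusted p = 0.455), Cldn18 (0.84, 0.378) and Pdx1 (-0.32, 0.28) were not called.

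Under 5-FU, 3 of the 5 genes differed between COL_5FU and MG_5FU, where 35.5% of genes were called, 17.0% higher and 18.6% lower: Tff1 and Pdx1 were lower and Gkn3 was higher in collagen. Tff1 had 1 count over COL_5FU and 226 over MG_5FU, 263-fold lower (95% exact counting interval 46.7 to 10400; edgeR adjusted p = 0.000238). Here too it passed the filter through the Matrigel groups alone, so a higher value in collagen could hardly have been called. Pdx1 was at 6.80, 9.09 and 12.1 CPM in COL_5FU and 21.2, 24.5 and 27.4 CPM in MG_5FU, without overlap (log2 fold change -1.47 ± 0.22, edgeR adjusted p = 0.000142). The Pdx1 call held in every alternative in which the gene was tested. So did the Tff1 call, but those alternatives rest on the same near-empty COL_5FU group and add no separate support. Gkn3 was at 8.57, 5.50 and 4.29 CPM in COL_5FU and 3.11, 2.95 and 4.06 CPM in MG_5FU (0.77 ± 0.28, edgeR adjusted p = 0.0447), and its call was lost without COL_5FU replicate 1 (0.46, edgeR adjusted p = 0.218) or 2 (0.0628) and without MG_5FU replicate 1 (0.118) or 2 (0.127), and with only the compared groups (0.0906). Ctse was not called (-1.08, edgeR adjusted p = 0.159), but it was without COL_5FU replicate 1 (-1.82, edgeR adjusted p = 0.0303). Gkn2, below the filter, had 5, 7 and 2 counts in COL_5FU and 0 in all 3 libraries of COL_Control and of MG_5FU, at least 4.6-fold higher than COL_Control (3 counts over the group at 0). Without the filter the edgeR adjusted p of Gkn2 was 0.0876 against COL_Control and 0.0991 against MG_5FU. The other 52 Gkn2 counts of the 18 libraries were in VIL replicate 2.

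Cathepsin E, the gastrokines Gkn3 and Gkn1 and the trefoil factor Tff1 were higher in collagen with cWRNE than with ENRW medium. The labels put COL_cWRNE and COL_Control in different experiments, so medium and experiment cannot be told apart. Between COL_cWRNE and COL_Control, both crypt cultures in collagen, 4 of the 7 genes tested were higher and 0 lower, where 18.0% of genes were called, 13.1% higher and 4.85% lower. Of these, Gkn1 and Tff1 had too few counts in COL_Control and passed the filter through other groups. A lower value could hardly have been called for them. Ctse averaged 136 ± 32.8 CPM in COL_cWRNE and 2.63 ± 1.54 CPM in COL_Control, 51.6-fold higher (log2 fold change 5.69 ± 0.73, edgeR adjusted p = 6.94e-05), and Gkn3 averaged 41.4 ± 3.28 CPM in COL_cWRNE and 4.84 ± 0.984 CPM in COL_Control, 8.53-fold higher (3.09 ± 0.28, edgeR adjusted p = 7.81e-06). Both held in every alternative run. The 8 immune markers summed to 37.6 to 88.9 CPM in COL_cWRNE and 11.2 to 13.1 CPM in COL_Control, and 2 of the 6 tested were called higher: Csf1r (8.22 CPM in COL_cWRNE and 0.588 CPM in COL_Control) and Cd74 (47.1 CPM in COL_cWRNE and 7.52 CPM in COL_Control). Others of the list did not follow: Lyz2 averaged 1.83 CPM in COL_cWRNE and 3.9 CPM in COL_Control. Adgre1, Cd79a and Ptprc were at 0 in COL_cWRNE. Whether COL_cWRNE held immune cells, and their part in the Ctse values, was not tested.

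Gkn1 and Tff1 rose as well. Gkn1 had 54, 56 and 9 counts in COL_cWRNE and 1, 1 and 0 in COL_Control, 58.5-fold higher by the summed counts (95% exact counting interval 15.8 to 488; edgeR adjusted p = 0.00975), and Tff1 had 60, 41 and 43 counts in COL_cWRNE and 2, 0 and 1 in COL_Control, 47.2-fold higher (15.8 to 231; edgeR adjusted p = 0.0105). These calls were lost without COL_Control replicate 3 (edgeR adjusted p = 0.0512) and on TPM with a pseudocount of 1 (1.25, limma adjusted p = 0.0809) for Gkn1 and without COL_Control replicate 2 for Tff1 (0.051). Tff2 (0.90 ± 1.57, edgeR adjusted p = 0.746), Cldn18 (1.29, 0.266) and Pdx1 (0.02, 0.971) were not called. Against MG_Control, where gel and medium changed together, 3 of the 6 genes tested were higher in COL_cWRNE and 0 lower, where 33.3% of genes were called, 20.1% higher and 13.1% lower. Ctse was 78.1-fold higher than in MG_Control (6.29 ± 0.67, edgeR adjusted p = 0.000149). Gkn1 passed the filter here through the cWRNE cultures alone, so a lower value in them could hardly have been called. Gkn1 (3.92 ± 1.26, edgeR adjusted p = 0.038) lost its call without COL_cWRNE replicate 1 or 2 or MG_Control replicate 1 or 3 (0.0965 to 0.116) and was 5.96 without MG_Control replicate 2. Gkn3 (0.84 ± 0.23, edgeR adjusted p = 0.0213) lost it without COL_cWRNE replicate 1 (0.0644) or MG_Control replicate 2 (0.0621) or 3 (0.0651). Tff1 (1.71, edgeR adjusted p = 0.215), Cldn18 (2.09, 0.0655) and Pdx1 (-0.34, 0.209) were not called. Cldn18 was called by DESeq2 (adjusted p = 0.0261) and by edgeR without the filter (0.0428), with all 18 libraries (0.0401) and with only the compared groups (0.0117), and by limma on TPM with a pseudocount of 1 (1.18, 0.0333). Tff1 was called by edgeR with only the compared groups (adjusted p = 0.0338), and the Gkn1 call was lost on TPM with a pseudocount of 1 (1.17, limma adjusted p = 0.169).

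Between VIL and COL_cWRNE, which share gel and medium, Tff1 was higher and Gkn3 lower in the villus-derived cultures: 2 of 6 genes tested, where 7.64% of genes were called, 5.68% higher and 1.96% lower. The stretch of intestine is given for the villi alone, so source and region cannot be told apart. Of 8 proximal small intestine genes 2 rose and 0 fell (median 0.87, all genes -0.03). Of 4 distal ones tested 1 rose and 0 fell (median 2.11). Tff1 was at 3.96, 84.3 and 14.8 CPM in VIL and 2.09, 1.29 and 1.45 CPM in COL_cWRNE, without overlap (log2 fold change 4.42 ± 0.98, edgeR adjusted p = 0.0271). Gkn3 was at 27.3, 17.0 and 17.3 CPM in VIL and 45.0, 40.6 and 38.6 CPM in COL_cWRNE, without overlap (-1.003 ± 0.24, edgeR adjusted p = 0.0329). Neither call held with each library left out in turn: Tff1 lost it without VIL replicate 2 (2.54, edgeR adjusted p = 0.0655) and without COL_cWRNE replicate 1 (0.0979), 2 (0.104) or 3 (0.114), and Gkn3 lost it without VIL replicate 2 (0.102) or 3 (0.0557) and without COL_cWRNE replicate 1 (0.131), 2 (0.0942) or 3 (0.103). With only the compared groups neither was called (Tff1 0.0665, Gkn3 0.0605). Ctse (1.81 ± 0.53, edgeR adjusted p = 0.0723) was called without VIL replicate 1 (2.32, 0.000513), by DESeq2 (0.0277) and without the filter (0.01), and Cldn18 (-2.84 ± 0.82, 0.0684) was called without VIL replicate 3 (-3.93, 0.0199), by DESeq2 (0.00719), without the filter (0.0254), with all 18 libraries (0.0301) and by limma on TPM (0.0241 and 0.0372). Cldn18, the gastric claudin, was at 0.155, 0.463 and 1.45 CPM in VIL and 8.41, 3.95 and 2.29 CPM in COL_cWRNE, without overlap. Gkn1 was at 0.544, 5.24 and 6.96 CPM in VIL and 1.89, 1.76 and 0.303 CPM in COL_cWRNE, with overlap. Gkn1 (1.69 ± 1.02, edgeR adjusted p = 0.383) and Pdx1 (0.02, 0.97) were not called.

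The 3 VIL libraries were unlike one another. VIL replicate 2 held 588 of the 609 Tff2 counts of VIL, and all 142 Muc5ac and all 52 Gkn2 counts, against 20 Tff2 counts in VIL replicate 3 and 1 in VIL replicate 1. Chosen after their values were seen, the mucin Muc1 was at 0.466, 229 and 2.67 CPM and the water channel Aqp5 at 5.28, 183 and 35.1 CPM in VIL replicates 1 to 3. The 8 mesenchymal markers summed to 44.5, 603 and 575 CPM in VIL and 4.52 to 6.65 CPM in COL_cWRNE, where Barx1, Col1a2, Col3a1, Des and Pdgfra were at 0. The 8 immune markers summed to 904, 2630 and 3690 CPM in VIL and 37.6 to 88.9 CPM in COL_cWRNE, where Adgre1, Cd79a and Ptprc were at 0. No marker of either list was at 0 over all of VIL, but Cd79a had only 1 count there and Cd3e 17 counts in 2 libraries. Lyz2, at a mean of 2180 CPM, made up most of the immune sum of VIL. The part of mesenchymal and immune cells in the Tff1, Gkn1 and Ctse values of VIL was not tested. With VIL replicate 1 alone standing for the villus-derived cultures, which assumes that it varies like the other groups, Tff1 stood at 1.32 (edgeR adjusted p = 0.311), Ctse at -0.18 (0.771), Gkn1 at -1.25 (0.72), Gkn3 at -0.58 (0.237) and Cldn18 at -4.92 (0.0278).

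**Figure D3:**
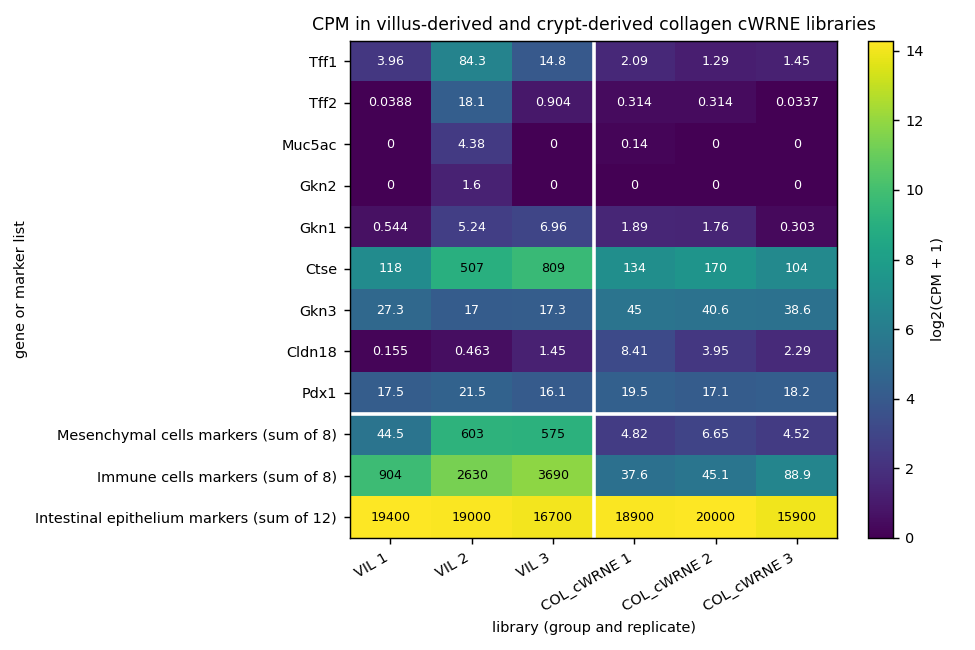
CPM of 9 markers and of 3 summed marker lists (rows) in the 3 VIL and 3 COL_cWRNE libraries (columns); colour is log2(CPM + 1) and the printed numbers are CPM. VIL replicate 2 carries 84.3 CPM of Tff1 and 18.1 CPM of Tff2, and the mesenchymal sums of VIL replicates 2 and 3 are 603 and 575 CPM, against 44.5 CPM in VIL replicate 1.

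Against MG_Control, 3 of the 6 genes tested were higher in VIL and 0 lower, where 46.6% of genes were called, 27.0% higher and 19.7% lower. Gel, medium and source changed together there, and the region of the crypts is not given. Ctse averaged 478 ± 347 CPM in VIL and 1.67 ± 0.308 CPM in MG_Control, 275-fold higher (log2 fold change 8.10 ± 0.72, edgeR adjusted p = 5.82e-05), and was 6.11 (edgeR adjusted p = 6.88e-07) with VIL replicate 1 alone. Tff1 averaged 34.3 ± 43.6 CPM in VIL and 0.479 ± 0.286 CPM in MG_Control (6.13 ± 1.09, edgeR adjusted p = 0.00195), and was 3.03 (0.00719) with VIL replicate 1 alone. Gkn1 (5.61 ± 1.30, edgeR adjusted p = 0.00686) was 2.68 with VIL replicate 1 alone. It passed the filter through the cWRNE cultures alone, so a lower value in them could hardly have been called. Gkn3 (-0.16, edgeR adjusted p = 0.595), Cldn18 (-0.75, 0.461) and Pdx1 (-0.32, 0.203) were not called.

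Other genes of gastric glands, gastric pits and Brunner glands were read beside the 10. Of 18 listed, 17 had an identifier, and the counts of genes called are given with each list's median log2 fold change beside that of all genes tested. With 5-FU in Matrigel 7 of 14 tested rose and 0 fell (median 1.23, all genes 0.06; 19.2% of all genes were called higher), led by the transcription factor Foxq1 (1.58), Anxa10 (2.39), an annexin of gastric epithelium, and the trefoil factor Tff3 (1.31), which goblet cells make too. Other lists rose in this comparison as well: 7 of 12 intestinal epithelium genes (median 1.19), 4 of 4 distal small intestine genes (2.42) and 4 of 6 squamous genes (2.44). With 5-FU in collagen 4 rose and 3 fell (median 0.58, all genes -0.03, of which 18.6% were called higher and 16.7% lower). Foxq1 (1.13), Sult1c2 (-2.83) and Vsig1 (1.36) led. The 5-FU change of Tff3 (-1.90) and Anxa10 (-1.58) differed between the gels. Between COL_Control and MG_Control 3 rose and 5 fell (median -0.38, all genes 0.04, of which 15.8% were called higher and 15.4% lower). Among them Foxq1 was 1.97 higher, the calpain Capn8 was at -3.83, and Aqp5, at 0 in MG_Control, was at least 58.8-fold higher (3 counts over the group at 0). Between COL_5FU and MG_5FU 3 rose and 6 fell (median -0.96, all genes -0.00, of which 17.0% were called higher and 18.6% lower). Tff3 (-2.44), Foxq1 (1.52) and Capn8 (-4.81) led.

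With cWRNE against ENRW, 6 of 14 of these genes rose and 1 fell (median 0.91, all genes 0.00, of which 13.1% were called higher and 4.85% lower). They were led by Vsig1 (3.14), a junctional protein of gastric epithelium, Anxa10 (2.81) and Psca (4.59). Anxa10 was at 202, 229 and 166 CPM in COL_cWRNE and 32.6, 26.9 and 25.9 CPM in COL_Control, and Vsig1 at 25.7, 40.8 and 28.8 CPM in COL_cWRNE and 2.77, 5.89 and 2.14 CPM in COL_Control. Neither gene's groups overlapped. Between COL_cWRNE and MG_Control 5 of 13 rose and 2 fell (median -0.07, all genes -0.01, of which 20.1% were called higher and 13.1% lower). Foxq1 (2.61), Vsig1 (4.46) and Anxa10 (3.41) led. Between VIL and COL_cWRNE 1 rose, Sult1c2 (2.62), and 0 fell (median 0.56, all genes -0.03, of which 5.68% were called higher and 1.96% lower). Between VIL and MG_Control 7 rose and 2 fell (median 2.05, all genes 0.02, of which 27.0% were called higher and 19.7% lower). Foxq1 (2.13), Vsig1 (5.02) and Anxa10 (4.09) led. The acid pump subunit Atp4b, which marks parietal cells, was at 0 in all 18 libraries. The other subunit listed, Atp4a, was detected in every group, with means between 0.606 CPM in VIL and 3.08 CPM in MG_Control.

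**Figure D4:**
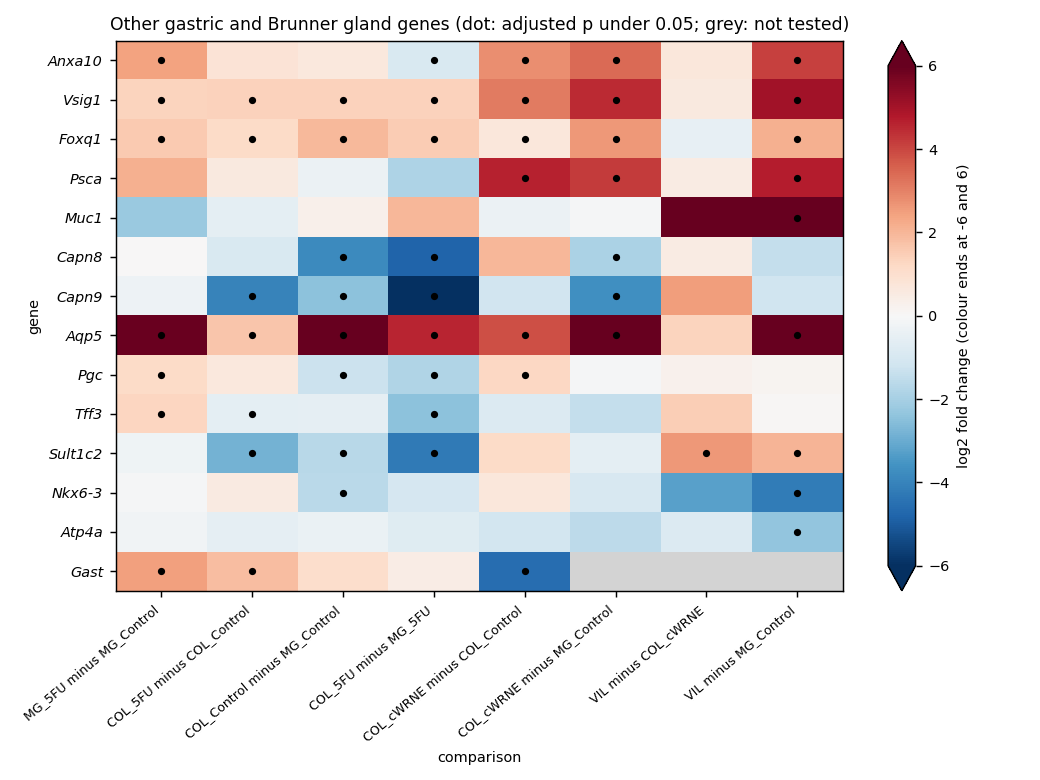
Log2 fold change (colour, cut at -6 and 6) of the 14 further gastric and Brunner gland genes tested (rows) in 8 comparisons (columns, first-named group minus second); dots mark an edgeR adjusted p under 0.05 and grey cells were not tested. Anxa10 and Vsig1 carry dots in all 3 columns that set a cWRNE culture against a culture in other medium, and folds of Aqp5 against MG_Control rest on a group at 0 counts.

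The 10 intestinal identity transcription factors read beside them moved mostly downward where they were called. With 5-FU in Matrigel 0 rose and 6 fell (median -0.36, all genes 0.06; 11.7% of all genes were called lower), with Cdx1 at -1.34. With 5-FU in collagen 1 rose and 7 fell (median -0.70, all genes -0.03; 16.7% called lower), with Cdx1 at -2.80 and Cdx2 at -1.38. Cdx2 is the next protein-coding gene after Pdx1 in the annotation. It was at 64.4, 75.5 and 77.9 CPM in COL_5FU and 182, 183 and 190 CPM in COL_Control, and Pdx1 was lower there too. In Matrigel Cdx2 fell as well, at 132, 122 and 110 CPM in MG_5FU and 176, 179 and 175 CPM in MG_Control, while Pdx1 averaged 24.4 CPM in MG_5FU and 22.3 CPM in MG_Control and was not called. Against COL_Control, COL_cWRNE had 0 higher and 1 lower, Hnf4a (-0.57), where 4.85% of all genes were called lower. Between VIL and COL_cWRNE the edgeR adjusted p of the 10 genes lay between 0.172 and 1.

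Markers of other stomach and gut cells were measured too. The 10 squamous markers of the forestomach and oesophagus summed to 210 to 317 CPM in VIL, 172 to 302 CPM in COL_cWRNE, 83.1 to 129 CPM in COL_5FU, 6.16 to 18.5 CPM in COL_Control, 8.43 to 12.8 CPM in MG_5FU and 1 to 1.83 CPM in MG_Control. Trp63 and Sprr3 were at 0 in every group but VIL. The sums were highest in VIL and COL_cWRNE, as Ctse was, and their part in the Ctse values was not tested. The 9 pancreatic markers summed to at most 2.46 CPM in any library, with Amy2a5, Cela2a and Cpa1 at 0 in all groups, beside Pdx1.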

How the data were processed

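SMART-Seq mRNA cDNA was tagged with Nextera XT, per the labels' protocols, and reads were processed with bcl2fastq 2.20 and DRAGEN on GRCm39 (mm39), per the submitters' processing notes. The annotation and counting tool were not given in the sources used here. The authors deposited expected counts (estimated counts per gene) and TPM for every library, per the file headers. Symbols were matched for 52081 of 55414 identifiers.

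Counts were rounded and fitted with edgeR 4.0.16 (R 4.3.3): quasi-likelihood F-tests, TMM scaling, and filterByExpr (count at least 10, total at least 15). Benjamini-Hochberg adjustment ran over every gene in a fit, and calls were made under 0.05. The 5-FU and gel comparisons shared 12 libraries, the villus comparisons 9, and cWRNE against ENRW all 18, so several comparisons share their control libraries. SE is the fold change divided by the square root of F. CPM used TMM over 18 libraries, where 3 counts are 0.087 to 0.138 CPM in 1 library; counting error is all that intervals and floors cover. The series calls the replicates of the 5-FU design biological; for the others, p-values measure the spread between cultures.

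All 10 genes are named in each comparison, with up to 3 genes of each other list by smallest adjusted p, and the 3 closest in pattern; 1 gene that this rule names is not reported here. The genes and lists were chosen with earlier results of these data known. Same-numbered replicates correlated, after group means were removed, at 0.284 to 0.564 (5-FU in Matrigel) and 0.201 to 0.425 (5-FU in collagen). The correlations were 0.102 to 0.383 (COL_5FU and MG_5FU) and 0.178 to 0.346 (COL_cWRNE and COL_Control). The main fits held the group alone and were not paired, and a replicate block was run as an alternative. No replicates were duplicates (lowest chi-square per degree of freedom 11.3). The fits were tested on simulated data, with changes planted only in genes averaging at least 10 counts. The simulated spread was the same in every group, so genes with fewer counts and the uneven VIL libraries were not covered. Alternatives were DESeq2 1.42.0, RLE factors, library totals, other filters, other sets of libraries, the replicate block, limma 3.58.1 on TPM, a fold threshold and leave-outs; VIL replicate 1 alone was added after the data were seen. On library totals and TPM the median of all genes moved by over 0.1 (log2) in several comparisons, as with 5-FU in Matrigel, at 0.06 with TMM, -0.09 on totals and -0.22 on TPM, where 62.2%, 44.6% and 28.2% of called genes were higher.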

Additional observations from a re-analysis of the deposited data

Results flagged for a closer look

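The 5-FU change of 2 genes differed between the gels by the test of the difference itself, which set them apart for a closer look. For Gkn3 the difference, collagen minus Matrigel, was 2.97 on the log2 scale, with 0.30 in collagen and -2.67 in Matrigel. For Pdx1 it was -1.15, with -0.97 in collagen and 0.18 in Matrigel. The gels came with different media, so gel and medium cannot be told apart in both differences. Groups of 3 were too small to flag single outlying libraries, but each library was left out in turn. The Gkn3 difference was then 2.66 to 3.17 (edgeR adjusted p 0.000345 to 0.00213) and kept its call. The Pdx1 difference was -1.39 to -0.96 (edgeR adjusted p 0.0105 to 0.0874) and lost its call in most leave-outs.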

How the results depend on the processing

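Counts of genes called are given for settings in which they moved by over 1.5 times. The range over the leave-outs is given for every comparison, whether or not it moved as far. The cause was not tested, except that the stricter filter leaves fewer genes to test. With 5-FU in Matrigel, 4 genes were called, against 1 with at least 10 CPM in 3 libraries, 2 with all 18 libraries in one fit, 2 by limma on TPM with a pseudocount of 0.1, and 2 to 4 with each replicate left out. Over all genes, 5128 of 16611 tested were called. The stricter filter gave 4632 of 10412, all 18 libraries 4038 of 17708 and TPM 5344 of 14661. With 5-FU in collagen, 1 was called, against 2 without the filter, 0 when a log2 change of 1 or more was also required and 1 in each leave-out. Over all genes the counts were 5862 of 16611 tested, 5912 of 29109 without the filter and 2218 of 16611 with the fold threshold. For the difference between gels, 2 were called, against 1 with all 18 libraries, 1 and 1 by limma on TPM with pseudocounts of 1 and 0.1, and 1 to 2 in the leave-outs. All genes gave 1360 of 16611 tested, against 521 of 17708 with all 18 libraries and 1400 and 1212 of 14661 on TPM. Between COL_Control and MG_Control, 2 were called, against 1 with the stricter filter, 1 with all 18 libraries, 1 with only the compared groups, 1 by limma on TPM with a pseudocount of 1, and 1 to 2 in the leave-outs. All genes gave 5188 of 16611 tested. In the same order of settings they gave 4471 of 10412, 3825 of 17708, 4555 of 15432 and 4863 of 14661. Between COL_5FU and MG_5FU, 3 were called, and 2 to 3 in the leave-outs. Between VIL and COL_cWRNE, 2 were called, against 4 by DESeq2, 5 without the filter, 1 with the stricter filter, 4 with all 18 libraries, 0 with only the compared groups, 1 with the replicate block, and 0 to 4 in the leave-outs. The counts over all genes moved too: 1276 of 16699 tested were called, against 2264 of 16699 by DESeq2, 1724 of 30115 without the filter and 847 of 10362 with the stricter one. They were 2480 of 17708 with all 18 libraries, 743 of 15844 with only the compared groups and 874 of 16699 with the block. The leave-outs ran from 351 of 17516 to 2050 of 17641. Between VIL and MG_Control, 3 were called, against 6 without the filter, 1 with the stricter one and 3 to 4 in the leave-outs. All genes gave 7789 of 16699 tested, against 7490 of 30115 without the filter and 6050 of 10362 with the stricter one. Between COL_cWRNE and MG_Control, 3 were called, and 1 to 3 in the leave-outs. Between COL_cWRNE and COL_Control, 4 were called, against 2 with the stricter filter and 3 to 4 in the leave-outs. All genes gave 3184 of 17708 tested, against 2935 of 10832 with the stricter filter.

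Directions turned only for log2 fold changes that were not called. With 5-FU in Matrigel, Pdx1 was -0.13 and -0.14 by limma on TPM (pseudocounts of 1 and 0.1), and with 5-FU in collagen Gkn3 was -0.0035 without COL_5FU replicate 1 (leave-outs up to 0.50). The difference between gels was 0.11 and 0.12 for Cldn18 on TPM. Between COL_5FU and MG_5FU, Cldn18 was -0.50 to 0.765 in the leave-outs, 3 of which turned it. Between VIL and COL_cWRNE, with VIL replicate 1 alone, Gkn1 was -1.25, Ctse -0.18 and Pdx1 -0.0361. Pdx1 was also -0.0237 on library totals, -0.00807 and -0.00906 on TPM, and -0.109 to 0.111 in the leave-outs. Between VIL and MG_Control, Gkn3 was 0.0589 without MG_Control replicate 1 (leave-outs from -0.362) and 0.28 with VIL replicate 1 alone. Between COL_cWRNE and COL_Control, Pdx1 was -0.00895 by DESeq2 and with RLE size factors, -0.157 on library totals, -0.0327 with the stricter filter, -0.00736 with only the compared groups, -0.0505 and -0.0534 on TPM, and -0.0585 to 0.0711 in the leave-outs. Over single genes, 692 values kept direction and side of the threshold, 60 dropped under it, 18 passed it and 27 turned.

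With the replicate block, Tff1 between VIL and COL_cWRNE was 3.86 (adjusted p = 0.0779), where same-numbered libraries share only a number; the block changed no other call of the 10 genes. Tff2, Muc5ac, Gkn2 and Sox2 were too shallow for most tests: without the filter Tff2 was called between VIL and COL_cWRNE (4.83, edgeR adjusted p = 0.0292), and Tff2 (0.00682), Gkn2 (0.0458) and Muc5ac (0.0171) between VIL and MG_Control. VIL replicate 2 held 588 of the 609 Tff2 counts of VIL and all of its Gkn2 and Muc5ac counts.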
